A study of Mus musculus with 60 samples.

Results

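Cholesterol is made in every nucleated cell, and the gut epithelium also absorbs it from food and bile and sends part of it back to the lumen. The 30 genes described here encode enzymes of cholesterol synthesis, proteins that sense sterols, and proteins that move sterols within or out of cells. They were taken by gene symbol from the 55357 genes listed in the deposited count table, each symbol matched 1 gene, and all 30 passed the filter on low counts. They were measured by polyA RNA sequencing of sorted gut epithelium from mice that carry Lgr5-2A-eGFP, an allele in which eGFP is made together with Lgr5, the R-spondin receptor of crypt base stem cells. The small intestine had been cut into proximal, middle and distal parts of equal size and the colon into a proximal and a distal part, and sorting by GFP split every part into a GFP-high, a GFP-intermediate and a GFP-negative fraction, with at least 30000 cells a fraction in the colon and 50000 in the small intestine. This gives 15 groups of 4 libraries, 60 in all. All groups came from 8-week-old mice with the reporter allele, so no group lacks it, and the GFP-negative fraction pools every sorted cell type without eGFP. The sex of the mice, and whether replicates were single or pooled animals, are not given in the sources used here, so the tests measure the spread between these samples.

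Synthesis starts from acetyl-CoA. The mevalonate arm builds isoprenoid units and joins them to farnesyl diphosphate, and the sterol arm turns that product into squalene, lanosterol and cholesterol. The transcription factor SREBP-2, encoded by Srebf2, switches most of these genes on when membrane cholesterol is low: SCAP carries the SREBP precursor to the Golgi for cleavage, and the INSIG proteins hold SCAP back when sterols are abundant. LXR receptors respond to oxysterols and raise Abca1, the ABCG5 and ABCG8 half-transporters and the ubiquitin ligase gene Mylip. In the intestine, absorptive enterocytes are the main site of sterol uptake and of secretion into the lumen through ABCG5 and ABCG8.

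Total counts ran from 55411864 to 113917959 per library, and levels are given as CPM, the count of a gene scaled to a common library size after TMM normalization, so that libraries of different depth can be compared. The sort followed the reporter gene. Lgr5 ranged from 144.6 to 334 CPM over the 8 GFP-high libraries of the colon and from 4.37 to 17.4 CPM over the 8 GFP-negative ones. In the small intestine it ranged from 280.2 to 598 CPM over 12 GFP-high libraries and from 1.65 to 4.33 CPM over 12 GFP-negative libraries. The fractions also differed in cell types. Summed over 10 enterocyte markers, the level in the small intestine was 1603 to 3823 CPM in GFP-high and 18810 to 45430 CPM in GFP-negative libraries, and over 6 Paneth cell markers 5204 to 25420 CPM in GFP-high and 456 to 1407 CPM in GFP-negative libraries. Summed over 14 leukocyte markers, GFP-high libraries held 77.8 to 139.8 CPM in the small intestine and 27.2 to 38.7 CPM in the colon, against 259.5 to 2079 CPM and 155.9 to 1336 CPM in the GFP-negative libraries of the same organs. Goblet cell markers (6) summed to 1815 to 4126 CPM in GFP-high and 33010 to 59630 CPM in GFP-negative libraries of the small intestine and to 12320 to 31090 CPM in GFP-high and 17770 to 58090 CPM in GFP-negative libraries of the colon. Enteroendocrine markers (6) ran from 69.1 to 311 CPM in GFP-high and from 354 to 11340 CPM in GFP-negative libraries of the colon, and colonocyte markers (7) from 196 to 4865 CPM in GFP-high and from 681 to 7946 CPM in GFP-negative libraries. Tuft markers (6) differed in direction between gut parts. They ran from 102.6 to 346.8 CPM in GFP-high and from 26.5 to 58.7 CPM in GFP-negative libraries of the small intestine. In the proximal colon the fractions overlapped, with 155.9 to 272 CPM in GFP-high and 102.1 to 181 CPM in GFP-negative libraries. In the distal colon GFP-high libraries were lower, with 43.4 to 62.85 CPM against 213.6 to 294.5 CPM. By gut part, the enterocyte marker Fabp1 and the Paneth marker Defa24 were at 0 in GFP-high libraries of the distal colon. In such bulk samples fewer cells of a type and less RNA per cell cannot be told apart, and the part of these cell types in the differences below was not tested.

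Some GFP-negative libraries stood apart. The libraries numbered 4 of that fraction were the lowest of their 4 in every gut part for 9 members, Mvk, Pmvk, Mvd, Tm7sf2, Ebp, Srebf1, Srebf2, Scap and Npc2, and the highest in every gut part for 4, Idi1, Ggps1, Msmo1 and Sc5d. Of all genes tested, 8.72% were lowest and 5.49% highest in these 5 libraries. The deposited count table gives every library numbered 4 the batch number 4, so replicate and batch cannot be told apart. These libraries counted 18960 to 21482 genes with at least 1 count, within the range of 18419 to 23453 over all libraries. In every part but the proximal small intestine they counted the fewest genes of their group. The counts were 20356 against 21634 to 23453 in the middle and 18960 against 20773 to 22963 in the distal small intestine. In the proximal colon it was 20135 against 21803 to 23283, and in the distal colon 20333 against 21532 to 22645. Of the members, 12 share exon bases with another annotated gene, and the strandedness of the libraries is not stated, so reads of overlapping genes cannot be told apart. Fdft1, Scap and Hmgcs1 share 18.3%, 13.2% and 12.1% of their exon bases with genes on the opposite strand. Tm7sf2 shares 12.1% with a gene on the same strand. Fdps shares 26.7% of its exon bases with a neighbouring gene on the same strand and was the lowest member per length. The levels of these members, of Idi1, which has 5 pseudogenes in the table, and of Acat2, which has the close copy Acat3, are therefore uncertain.

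Most members were lower in Lgr5-expressing cells than in the cells without the reporter. In GFP-high against GFP-negative cells, 17 members fell and 1 rose in the proximal small intestine, where 24.6% of all 23360 genes tested were called lower and 22.5% higher (adjusted p below 0.05, edgeR quasi-likelihood test). In the middle small intestine 21 fell and 2 rose, against 25.6% and 22.7% of all genes, and in the distal small intestine 23 fell and 1 rose, against 26.2% and 25.7%. The colon showed the same direction with fewer calls: 11 fell and 2 rose in the proximal colon, against 14.0% and 11.3% of all genes, and 8 fell and 0 rose in the distal colon, against 13.9% and 11.2%. The median log2 difference of the 30 members was -0.50, -0.67 and -0.79 along the small intestine and -0.33 in each colon part, while the median of all genes tested lay between -0.04 and 0.00. At an unadjusted p below 0.05, 17 members differed in the distal colon, and the DESeq2 Wald test called 13 members there. The shares of all genes at that threshold and in that test are not given here, so these counts do not set the members apart. With only the groups compared, which leaves fewer residual degrees of freedom, 3 members were called in the proximal and 5 in the distal colon, and 0 were called in the distal colon without the libraries numbered 3.

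**Figure D1:**
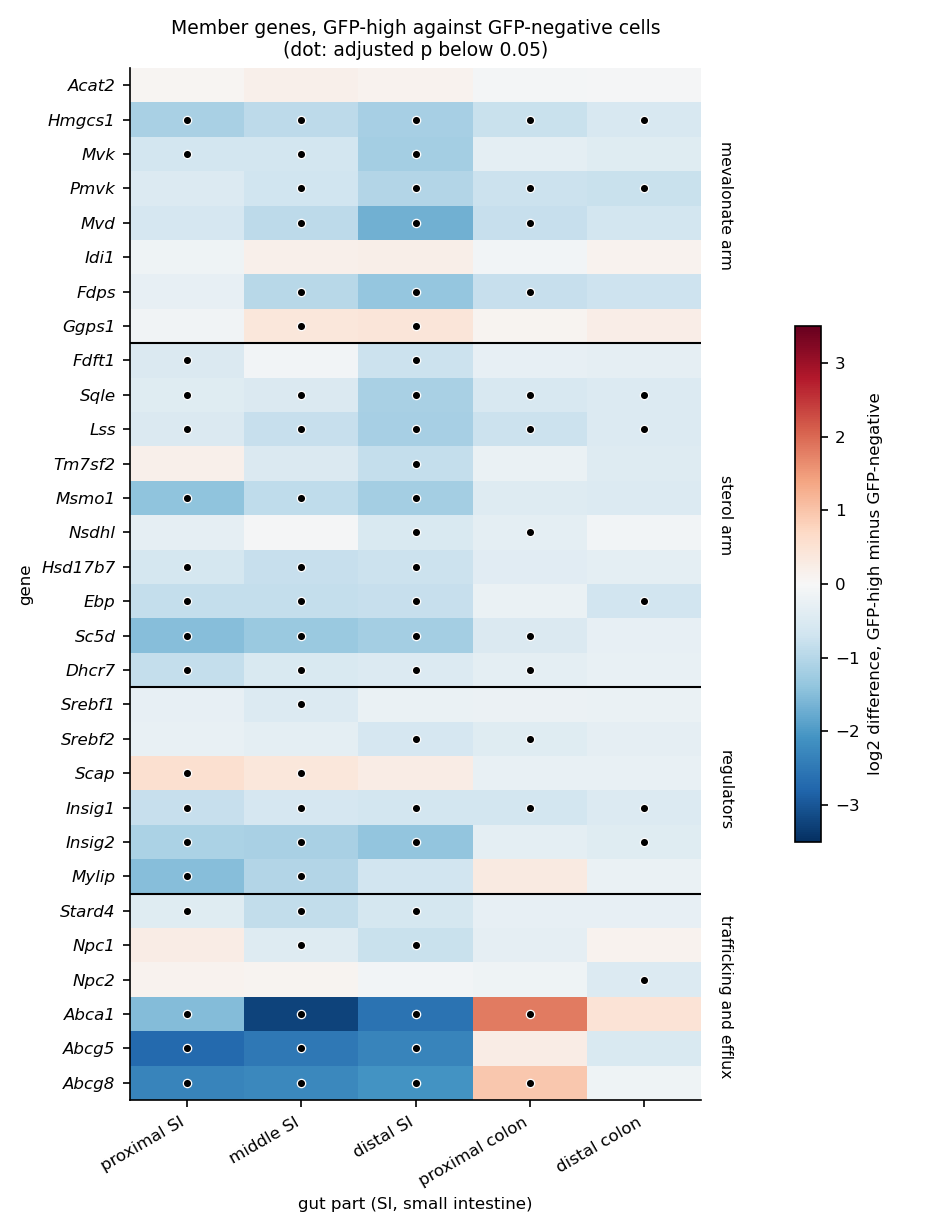
Log2 difference of GFP-high minus GFP-negative cells for the 30 members (rows, grouped by role) in the 5 gut parts (columns), with a dot where the adjusted p was below 0.05. Blue, lower in GFP-high cells, prevails in the small intestine, where 17, 21 and 23 members fell, and Abca1 is at -3.25 in the middle small intestine and at 1.81 in the proximal colon.

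Of the 30 members, 26 fell in at least 1 gut part and 15 in all 3 parts of the small intestine, where 37.4% and 18.0% of all genes tested did. Hmgcs1, Sqle, Lss and Insig1, 4 members, fell in all 5 gut parts, where 6.61% of all genes did. Without the libraries numbered 4, only Lss of these kept its call in every part. Sqle then lost its call in the proximal and middle small intestine and both colon parts (edgeR adjusted p = 0.117, 0.111, 0.0538 and 0.161). Insig1 lost it in the proximal and distal colon (0.0729 and 0.0738), and Hmgcs1 in the distal colon (0.209). The Sqle call in the proximal small intestine was lost without any 1 of 5 libraries (GFP-high replicates 1, 2 and 4 and GFP-negative replicates 3 and 4, values -0.35 to -0.42) and without any replicate number, and that of Lss was -0.33 and not called without GFP-negative replicate 3. Acat2 and Idi1 passed the test in none. Scap and Ggps1 rose in the small intestine, each in 2 parts, and Abca1 and Abcg8 fell in the small intestine but rose in the proximal colon. The rise of Abcg8 was at low levels with overlapping libraries, and its call was lost under several alternatives, as given below. Between libraries, all 4 GFP-high values lay below all 4 GFP-negative values for 14 members in the proximal, 14 in the middle and 21 in the distal small intestine, for 1 in the proximal colon and for 3 in the distal colon. Of all genes tested, 20.9%, 22.4% and 19.9% separated in this way along the small intestine, 9.66% in the proximal colon and, in the distal colon, 2810 of 23360 genes.

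In the mevalonate arm, Hmgcs1, which makes HMG-CoA from acetoacetyl-CoA, was the member with the highest level per length, 55.3 CPM per kb over all libraries. In the proximal small intestine it had 108, 121, 131 and 116 CPM in GFP-high cells, against 219, 255, 287 and 287 CPM in GFP-negative cells. The libraries of the fractions did not overlap, and the log2 difference was -1.14 ± 0.19 (adjusted p = 1.38e-06). It was -0.91 ± 0.19 (adjusted p = 5.83e-05) in the middle and -1.17 ± 0.19 (adjusted p = 6.97e-07) in the distal small intestine. In the proximal colon Hmgcs1 had 208, 314, 199.7 and 182 CPM in GFP-high and 286, 495, 280.2 and 502 CPM in GFP-negative cells, giving a difference of -0.79 ± 0.19 (adjusted p = 0.00113). In the distal colon it had 389, 272, 334 and 337 CPM in GFP-high and 454, 312, 505 and 694 CPM in GFP-negative cells, giving a difference of -0.56 ± 0.19 (adjusted p = 0.0214). In both colon parts the fractions overlapped, and the calls ended in a fit of only the groups compared (adjusted p = 0.0569 in the proximal and 0.0716 in the distal colon). In the distal colon the value without GFP-high replicate 2 was -0.48 and without GFP-negative replicate 4 it was -0.35, and neither passed the test.

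The next enzymes, the kinases Mvk and Pmvk and the decarboxylase Mvd, convert mevalonate to isopentenyl diphosphate. All 3 fell in the middle and distal small intestine. Mvk averaged 18.1 ± 2.99 CPM in GFP-high and 41.7 ± 10.3 CPM in GFP-negative cells of the distal small intestine (SD, n = 4 each), a log2 difference of -1.20 ± 0.24 (adjusted p = 3.71e-05). Mvd was lower there by the largest margin of the arm, with 11.7, 19.9, 18.2 and 28.1 CPM in GFP-high and 80.5, 69.9, 55.8 and 42.1 CPM in GFP-negative cells and a difference of -1.67 ± 0.30 (adjusted p = 5.9e-06). The groups were separate in that part, with GFP-high replicate 4 the highest and GFP-negative replicate 4 the lowest of their groups. Fdps, the farnesyl diphosphate synthase, had 3.75, 5.24, 4.64 and 4.50 CPM in GFP-high and 6.61, 10.8, 8.60 and 5.75 CPM in GFP-negative cells of the proximal colon, a difference of -0.81 ± 0.29 (adjusted p = 0.032) at the low level noted above. Its libraries did not overlap there, and the call was lost without a filter on low counts (adjusted p = 0.0542).

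Ggps1 differed from the rest of the arm. It makes geranylgeranyl diphosphate for protein prenylation and lies on a side branch that does not lead to sterols. It had 38.0, 42.7, 35.2 and 27.6 CPM in GFP-high and 25.4, 21.9, 25.2 and 36.7 CPM in GFP-negative cells of the middle small intestine, a log2 difference of 0.39 ± 0.17 (adjusted p = 0.0494). In the distal small intestine it had 39.5, 41.9, 34.9 and 28.3 CPM in GFP-high and 23.5, 24.1, 29.4 and 30.4 CPM in GFP-negative cells, giving a difference of 0.43 ± 0.17 (adjusted p = 0.03). The fractions overlapped in both parts, since GFP-negative replicate 4 was high and GFP-high replicate 4 low. Both calls were lost with DESeq2 size factors, in the DESeq2 Wald test and without any 1 of several libraries, among them GFP-high replicate 2 (values 0.30 and 0.35). Without the libraries numbered 4 the values were 0.68 and 0.59 (edgeR adjusted p = 3.25e-05 and 0.000173). Ggps1 was then also called higher in the proximal and distal colon, by 0.38 and 0.55 (0.0199 and 0.00105). DESeq2 size factors shift the median of all genes by -0.10, -0.08 and -0.13 relative to TMM along the small intestine. Idi1, the isopentenyl diphosphate isomerase, and Acat2, the cytosolic acetoacetyl-CoA thiolase, had log2 differences between -0.16 and 0.19 and between -0.07 and 0.18 over the 5 parts. Without the libraries numbered 4, Idi1 was called higher in the middle small intestine (0.51, edgeR adjusted p = 0.0402). In Ggps1 and Idi1 GFP-negative replicate 4 was the highest of its group in every part, so leaving it out lowers the GFP-negative mean.

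Upstream sequence of RefSeq on GRCm38.p6 was at hand for 25 of the 30 members, as windows from 250 bases before to 50 after the start. The letter patterns were searched on both strands; they do not contain one another. The form TCACNCCAC of the sterol regulatory element, which SREBP binds, occurred in 1 of the 25, Hmgcs1, and in 1.44% of all gene symbols with a window. CCAAT, the box bound by NF-Y, which acts beside SREBP at many of these genes, occurred in 22 of the 25 and in 41.1% of all symbols. Shown are Hmgcs1, Lss and Insig1, which fell in all 5 gut parts (Sqle has no window), 5′ to 3′ with matches in capitals, 200 bases each without annotated exon bases. The Hmgcs1 stretch is chr13:119690151-119690350, the Lss stretch chr10:76531388-76531587 and the Insig1 stretch chr5:28071163-28071362, all on the plus strand.
Hmgcs1: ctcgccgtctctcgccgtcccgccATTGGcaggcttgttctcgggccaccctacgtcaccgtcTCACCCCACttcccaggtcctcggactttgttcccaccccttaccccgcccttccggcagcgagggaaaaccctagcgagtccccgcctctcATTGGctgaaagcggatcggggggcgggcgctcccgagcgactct
Lss: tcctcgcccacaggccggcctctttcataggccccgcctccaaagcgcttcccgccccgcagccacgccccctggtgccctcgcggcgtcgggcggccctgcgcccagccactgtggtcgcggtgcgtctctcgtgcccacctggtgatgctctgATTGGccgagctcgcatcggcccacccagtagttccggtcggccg
Insig1: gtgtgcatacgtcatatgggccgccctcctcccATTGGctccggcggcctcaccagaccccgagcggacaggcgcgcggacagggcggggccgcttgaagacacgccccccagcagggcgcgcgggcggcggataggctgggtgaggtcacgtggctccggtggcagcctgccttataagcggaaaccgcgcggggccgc
In Hmgcs1 the capitals mark TCACCCCAC, the sterol regulatory element form, between a pair of CCAAT boxes read as ATTGG. In Lss and Insig1 they mark 1 ATTGG each. A match describes these letters and no binding was measured.

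In the sterol arm, the 10 enzymes from squalene synthase to 7-dehydrocholesterol reductase, 8 fell in the proximal, 7 in the middle and 10 in the distal small intestine, and none rose. Sc5d and Msmo1 differed most in each part. Sc5d, the lathosterol oxidase, averaged 49.6 ± 4.11 CPM in GFP-high and 139.8 ± 26.3 CPM in GFP-negative cells of the proximal small intestine (SD, n = 4 each), a log2 difference of -1.50 ± 0.15 (adjusted p = 2.4e-12), and the difference was -1.31 ± 0.15 in the middle and -1.18 ± 0.14 in the distal part. Msmo1, the sterol C4-methyl oxidase, averaged 43.7 ± 4.56 CPM in GFP-high and 116 ± 18.0 CPM in GFP-negative cells of the proximal small intestine, a difference of -1.40 ± 0.20 (adjusted p = 7.5e-08). For both genes every GFP-high library of a small intestinal part lay below every GFP-negative library of that part. Sqle, the squalene epoxidase, and Lss, the lanosterol synthase, showed smaller differences, of -0.42 ± 0.17 and -0.51 ± 0.17 in the proximal small intestine. In the distal small intestine they were -1.12 ± 0.17 and -1.17 ± 0.17, and the difference between the distal and proximal effects did not pass the test for either gene (adjusted p = 0.0765 and 0.0989).

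In the colon, 5 enzymes of the sterol arm fell in the proximal part and 3 in the distal part. Sqle and Lss were the enzymes of this arm that fell in both, with log2 differences of -0.57 ± 0.17 and -0.74 ± 0.17 in the proximal and -0.47 ± 0.17 and -0.49 ± 0.17 in the distal colon. Ebp, the sterol isomerase, had 44.2, 42.6, 53.0 and 61.9 CPM in GFP-high and 86.7, 84.1, 98.4 and 53.8 CPM in GFP-negative cells of the distal colon, a log2 difference of -0.68 ± 0.17 (adjusted p = 0.00167). The fractions overlapped through replicate 4, the highest of the GFP-high and the lowest of the GFP-negative group, and the difference was -0.95 without the libraries numbered 4. Hsd17b7, Nsdhl and Fdft1 had differences between -0.81 and -0.04 over the 5 parts, and Dhcr7, the last enzyme of the arm, fell by 0.82 in the proximal small intestine and by 0.33 in the proximal colon on the log2 scale.

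**Figure D2:**
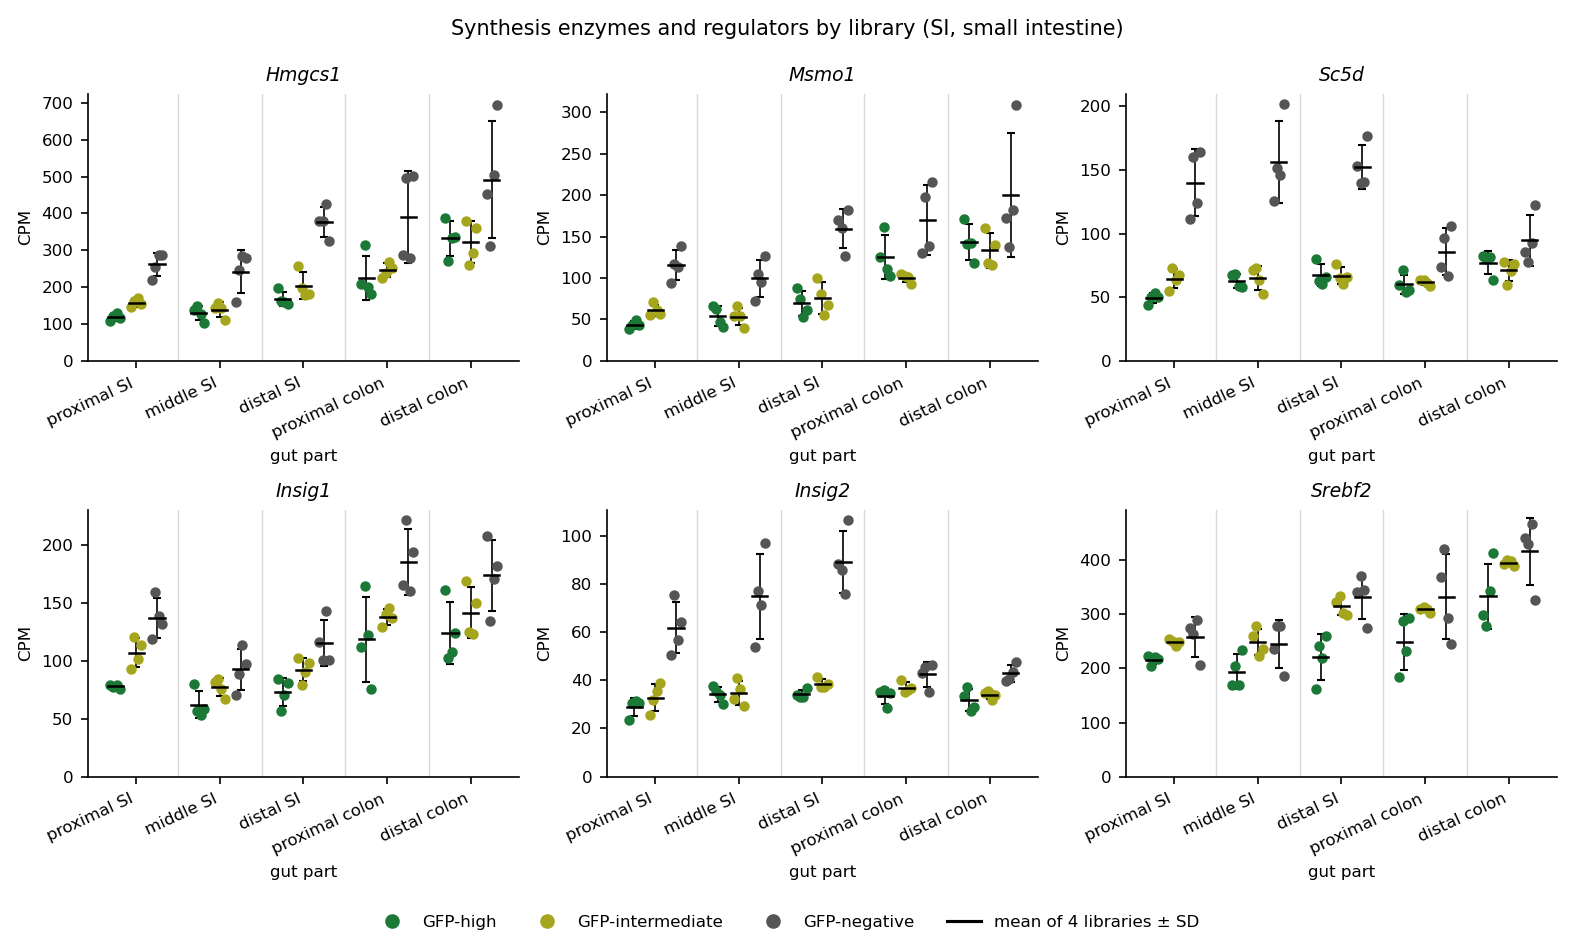
CPM of 3 synthesis enzymes and 3 regulators in each library, by gut part and GFP fraction, with the mean and SD of 4 libraries. Sc5d and Insig2 show GFP-negative cells of the small intestine well above the other fractions, while in the colon the fractions of both genes lie close together, and Hmgcs1 reaches 694 CPM in 1 GFP-negative library of the distal colon.

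Among the regulators, Insig1 fell in 5 gut parts, Insig2 in 4, Srebf2 in 2 and Srebf1 in 1. Without the libraries numbered 4, Srebf1 and Srebf2 were each called in 5, while Insig1 and Insig2 were called in neither colon part. Insig1, itself a target of SREBP, had 78.8, 77.7, 79.4 and 75.5 CPM in GFP-high and 119, 159.7, 139 and 131 CPM in GFP-negative cells of the proximal small intestine, a log2 difference of -0.82 ± 0.17 (adjusted p = 4.69e-05). In the middle small intestine it had 79.9, 56.8, 53.5 and 58.3 CPM in GFP-high and 70.7, 88.9, 113 and 97.3 CPM in GFP-negative cells, and in the distal part 84.6, 56.9, 70.7 and 80.4 CPM in GFP-high and 117, 101, 143 and 101 CPM in GFP-negative cells. Replicate 1 of the GFP-high group was high in the middle part and overlapped the GFP-negative libraries. In the colon it had 112, 165, 122 and 75.4 CPM in GFP-high and 166, 222, 159.9 and 194 CPM in GFP-negative cells of the proximal part, and 161, 102, 107 and 124 CPM in GFP-high and 208, 134, 171 and 182 CPM in GFP-negative cells of the distal part. The differences there were -0.65 ± 0.17 (adjusted p = 0.00256) and -0.49 ± 0.17 (adjusted p = 0.0235), the fractions overlapped, and both calls ended with only the groups compared.

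Insig2, the second retention protein, fell further in the small intestine. It had 23.3, 30.6, 31.2 and 30.5 CPM in GFP-high and 50.6, 75.4, 56.9 and 64.4 CPM in GFP-negative cells of the proximal part, and 37.5, 35.5, 33.8 and 30.01 CPM in GFP-high and 53.9, 77.3, 71.4 and 96.9 CPM in GFP-negative cells of the middle part. In the distal part it had 34.1, 33.2, 33.1 and 36.8 CPM in GFP-high and 88.5, 86.0, 76.0 and 107 CPM in GFP-negative cells. No GFP-high library reached a GFP-negative one, and the log2 differences were -1.10 ± 0.14 (adjusted p = 1.6e-09), -1.13 ± 0.14 (adjusted p = 6.69e-10) and -1.38 ± 0.14 (adjusted p = 2.53e-12). In the colon it had 35.0, 36.1, 28.4 and 34.5 CPM in GFP-high and 43.1, 45.5, 35.0 and 46.5 CPM in GFP-negative cells of the proximal part, and 33.5, 37.2, 27.4 and 28.9 CPM in GFP-high and 39.7, 40.7, 43.4 and 47.7 CPM in GFP-negative cells of the distal part. The fractions overlapped in the proximal but not in the distal colon. The colon differences were -0.34 ± 0.13 (adjusted p = 0.0517) and -0.43 ± 0.13 (adjusted p = 0.0125).

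Srebf2 had 162, 241, 219.9 and 260.0 CPM in GFP-high and 341, 371, 346 and 275 CPM in GFP-negative cells of the distal small intestine, a log2 difference of -0.59 ± 0.15 (adjusted p = 0.000603). In the proximal part it had 223, 205, 220.4 and 217 CPM in GFP-high and 275, 263, 290.1 and 206 CPM in GFP-negative cells, and in the middle part 169, 205, 169 and 235 CPM in GFP-high and 236, 279, 279 and 186 CPM in GFP-negative cells. It did not pass the test in these parts, where GFP-negative replicate 4 lay within the GFP-high range. In the colon it had 183, 287, 233 and 294 CPM in GFP-high and 370.1, 421, 294 and 245 CPM in GFP-negative cells of the proximal part with a difference of -0.41 ± 0.15 (adjusted p = 0.0313), and 299, 278, 344 and 413 CPM in GFP-high and 442, 430.0, 467 and 328 CPM in GFP-negative cells of the distal part with a difference of -0.32 ± 0.15 (adjusted p = 0.102). The fractions overlapped in both colon parts. Without the libraries numbered 4, Srebf2 was called lower in all 5 gut parts, with -0.35 (adjusted p = 0.0292), -0.55 (0.00076) and -0.76 (8.59e-06) along the small intestine and -0.63 (0.00037) and -0.54 (0.00192) in the proximal and distal colon by edgeR. GFP-negative replicate 4 was the lowest of its group in every part, so leaving it out raises the GFP-negative mean. GFP-high replicate 4 was the highest of its group in every part but the proximal small intestine. Leaving it out lowers the GFP-high mean where it was highest. The calls without the libraries numbered 4 therefore depend on that choice. Without proximal colon GFP-negative replicate 2 the proximal colon value was -0.28 and did not pass the test.

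Srebf1, whose product SREBP-1c acts mainly on fatty acid genes, had 119, 101, 103 and 108 CPM in GFP-high and 145, 144, 133 and 101 CPM in GFP-negative cells of the proximal small intestine. In the middle part it had 99.1, 79.6, 85.2 and 105 CPM in GFP-high and 138, 132, 146 and 94.1 CPM in GFP-negative cells, and in the distal part 70.1, 94.3, 88.1 and 115 CPM in GFP-high and 117, 112, 114 and 91.8 CPM in GFP-negative cells. The middle part was the 1 call, -0.47 ± 0.16 (adjusted p = 0.0159), and all 3 parts overlapped. In the colon it had 84.8, 124, 103 and 132 CPM in GFP-high and 141, 149.8, 131 and 91.8 CPM in GFP-negative cells of the proximal part, and 101, 90.1, 114 and 191 CPM in GFP-high and 148, 145, 163 and 126 CPM in GFP-negative cells of the distal part, with no call and with GFP-high replicate 4 the highest of the distal part. Without the libraries numbered 4, Srebf1 too was called lower in all 5 gut parts, with log2 differences of -0.39, -0.66 and -0.44 along the small intestine and -0.44 and -0.58 in the proximal and distal colon, and edgeR adjusted p-values between 2.99e-05 and 0.0094. Its GFP-negative replicate 4 was likewise the lowest of its group in every part. Its GFP-high replicate 4 was the highest in every part but the proximal small intestine, so these calls depend on the same choice.

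Scap went the other way in the proximal and middle small intestine. It had 89.7, 81.5, 86.8 and 88.0 CPM in GFP-high and 62.8, 56.4, 68.8 and 45.5 CPM in GFP-negative cells of the proximal part, without overlap, a log2 difference of 0.57 ± 0.14 (adjusted p = 0.000832). In the middle part it had 65.9, 66.7, 70.2 and 80.6 CPM in GFP-high and 59.9, 58.5, 55.0 and 42.5 CPM in GFP-negative cells, again without overlap, a difference of 0.39 ± 0.14 (adjusted p = 0.0198). The call in the middle part was lost with DESeq2 size factors, without GFP-high replicate 4, where the value was 0.32, and without GFP-negative replicate 4, where it was 0.29. In the distal small intestine the fractions overlapped and Scap was not called. In the colon the differences were -0.26 ± 0.14 and -0.26 ± 0.14, with no call. Without the libraries numbered 4, Scap was called lower in the proximal (-0.50, edgeR adjusted p = 0.000615) and distal colon (-0.49, 0.001). Its GFP-negative replicate 4 was the lowest of its group in every gut part.

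Of the trafficking genes, Stard4, a cytosolic sterol carrier under SREBP control, fell in the 3 parts of the small intestine, with log2 differences of -0.41 ± 0.13, -0.86 ± 0.13 and -0.61 ± 0.13. Its GFP-high means ran from 196 to 271 CPM and its GFP-negative means from 273 to 414 CPM there. Npc1, the lysosomal cholesterol exporter, averaged 29.1 ± 0.831 CPM in GFP-high and 24.1 ± 4.45 CPM in GFP-negative cells of the proximal small intestine, against 26.8 ± 3.37 CPM in GFP-high and 45.8 ± 8.64 CPM in GFP-negative cells of the distal part (SD, n = 4 each). Its log2 difference was 0.27 ± 0.14 in the proximal part and -0.77 ± 0.14 (adjusted p = 4.41e-06) in the distal part, and the distal minus proximal difference between these effects was -1.04 ± 0.20 (adjusted p = 0.000449). It was the 1 member called in that test, where 3.54% of all genes were called. Npc2, the lumenal partner of Npc1, fell in the distal colon, with a log2 difference of -0.47 ± 0.15.

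Mylip, the ubiquitin ligase that marks lipoprotein receptors for degradation, fell in the proximal and middle small intestine, with log2 differences of -1.50 ± 0.33 (adjusted p = 0.000143) and -1.02 ± 0.32 (adjusted p = 0.00591). In the middle part GFP-negative replicate 1 was high, at 11.9 CPM against 5.38 to 6.23 CPM in the other 3, and the difference was -0.67 and not called without it. In the distal part and the colon it was not called.

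The efflux transporters carried the largest differences, and they set the small intestine apart from the colon. Abca1, which loads cholesterol onto apolipoprotein A-I at the basolateral side, had 4.58, 4.63, 2.80 and 2.94 CPM in GFP-high and 6.88, 15.1, 5.91 and 14.7 CPM in GFP-negative cells of the proximal small intestine. In the middle part it had 6.55, 8.39, 6.67 and 8.43 CPM in GFP-high and 63.7, 84.8, 54.4 and 83.4 CPM in GFP-negative cells, and in the distal part 9.29, 8.42, 10.7 and 6.05 CPM in GFP-high and 37.5, 41.8, 58.3 and 69.8 CPM in GFP-negative cells. Every GFP-negative library was above every GFP-high one, and the log2 differences were -1.51 ± 0.40 (adjusted p = 0.00137), -3.25 ± 0.42 (adjusted p = 4.14e-09) and -2.59 ± 0.41 (adjusted p = 3.56e-07). The order was the opposite in the proximal colon. Abca1 had 55.6, 28.4, 17.5 and 27.4 CPM in GFP-high and 7.13, 7.67, 11.3 and 10.6 CPM in GFP-negative cells there, again without overlap, and rose by 1.81 ± 0.40 (adjusted p = 0.00041). In the distal colon it had 17.0, 9.03, 8.04 and 23.4 CPM in GFP-high and 8.34, 9.88, 5.53 and 17.4 CPM in GFP-negative cells, which overlapped, and the difference of 0.48 ± 0.38 was not called (adjusted p = 0.391).

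Abcg5 and Abcg8 encode the subunits of a heterodimer that pumps cholesterol and plant sterols into the gut lumen. Abcg5 had 34.3, 37.7, 32.5 and 30.7 CPM in GFP-high and 188, 316, 166 and 228 CPM in GFP-negative cells of the proximal small intestine. In the middle part it had 71.1, 60.03, 57.5 and 46.4 CPM in GFP-high and 321, 364, 284 and 351 CPM in GFP-negative cells, and in the distal part 47.2, 44.4, 47.2 and 46.2 CPM in GFP-high and 280.2, 233, 178 and 219 CPM in GFP-negative cells. GFP-negative libraries were higher throughout, with log2 differences of -2.73 ± 0.32 (adjusted p = 4.89e-10), -2.49 ± 0.32 (adjusted p = 3.72e-09) and -2.30 ± 0.32 (adjusted p = 1.91e-08). Abcg8 had 45.3, 41.8, 49.5 and 40.5 CPM in GFP-high and 151, 309, 182 and 229.5 CPM in GFP-negative cells of the proximal part. In the middle part it had 66.9, 67.5, 68.5 and 56.1 CPM in GFP-high and 285, 321, 302 and 319.7 CPM in GFP-negative cells, and in the distal part 52.7, 40.3, 59.7 and 49.8 CPM in GFP-high and 243, 204, 168 and 245 CPM in GFP-negative cells. It followed its partner, with differences of -2.30 ± 0.33 (adjusted p = 5.49e-08), -2.24 ± 0.33 (adjusted p = 8.39e-08) and -2.09 ± 0.33 (adjusted p = 3.15e-07). The enterocyte marker sums given above differed between these fractions in the same direction.

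In the colon both genes were near the lower end of what was measured. Abcg5 had 1.43, 1.41, 0.454 and 1.33 CPM in GFP-high and 1.04, 1.64, 0.993 and 0.18 CPM in GFP-negative cells of the proximal part, and 2.42, 3.37, 1.70 and 2.09 CPM in GFP-high and 4.53, 2.55, 2.15 and 4.66 CPM in GFP-negative cells of the distal part. Abcg8 had 3.38, 1.78, 0.431 and 1.54 CPM in GFP-high and 1.24, 1.35, 0.924 and 0.232 CPM in GFP-negative cells of the proximal part, and 2.51, 2.14, 1.29 and 1.79 CPM in GFP-high and 2.89, 1.41, 1.43 and 2.84 CPM in GFP-negative cells of the distal part. The libraries of the fractions overlapped for both genes. The rise of Abcg8 in the proximal colon, 0.94 ± 0.36 (adjusted p = 0.0464), was lost with DESeq2 size factors, without the filter on low counts, in the newer quasi-likelihood form and with only the groups compared, and it was 0.43 without GFP-high replicate 1.

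The pair lies head to head, and the annotated RefSeq starts on chromosome 17 are 109 bases apart. The stretch between them (chr17:84683012-84683120 on GRCm38.p6, plus strand, reading towards Abcg8) is shown because both partners moved together. Capitals mark TTATCT, which is AGATAA on the other strand, a motif of GATA factors.
Abcg5 and Abcg8: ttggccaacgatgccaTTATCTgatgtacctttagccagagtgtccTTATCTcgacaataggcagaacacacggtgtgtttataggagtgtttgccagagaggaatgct
AGATAA on either strand occurred in 4 of the 25 members with a window (Abcg5, Abcg8, Insig2 and Npc2) and in 12.7% of all gene symbols, but the windows of Abcg5 and Abcg8 overlap and share both sites shown, so these members are not separate occurrences. The match is a description of the sequence.

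**Figure D3:**
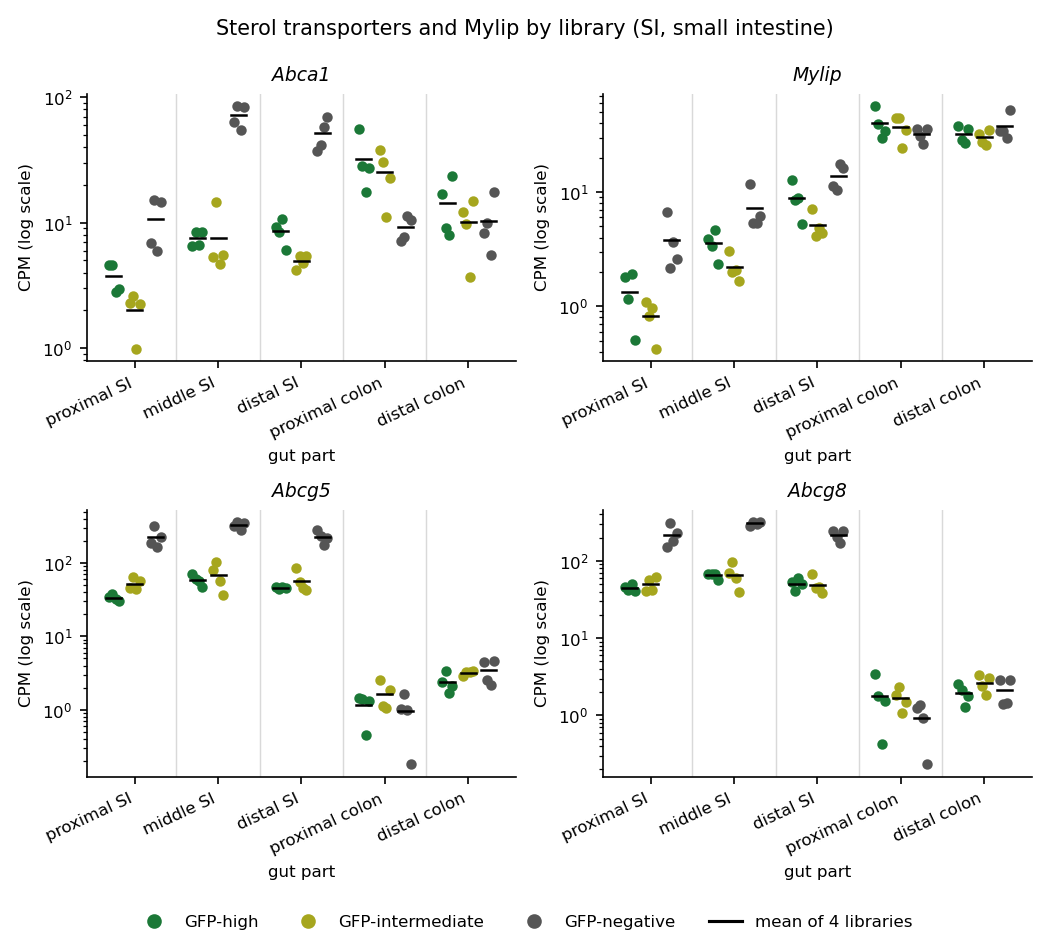
CPM on a log scale of Abca1, Mylip, Abcg5 and Abcg8 in each library, by gut part and GFP fraction, with the mean of 4 libraries as a line. Abcg5 lies at or below 4.66 CPM in the colon and between 30.7 and 364 CPM in the GFP-high and GFP-negative libraries of the small intestine, Mylip lies at or above 26.4 CPM in those fractions of the colon and at or below 17.8 CPM in those of the small intestine, and Abca1 has its highest fraction in GFP-negative cells of the small intestine but in GFP-high cells of the proximal colon.

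Leaving out the libraries numbered 4 moved several of these members. Pmvk had 15.5, 14.9, 19.6 and 21.6 CPM in GFP-high and 38.4, 28.4, 42.2 and 14.5 CPM in GFP-negative cells of the distal colon, a log2 difference of -0.79 ± 0.27 (adjusted p = 0.0278), and -1.12 without the libraries numbered 4. In the proximal colon Mvd had 19.2, 38.2, 30.1 and 52.9 CPM in GFP-high and 70.0, 101, 49.5 and 24.1 CPM in GFP-negative cells. Its difference there was -0.80 ± 0.30 (adjusted p = 0.04), and -1.33 without the libraries numbered 4, but it lost its call with the replicate block (adjusted p = 0.0526). In both genes GFP-high replicate 4 was the highest and GFP-negative replicate 4 the lowest of its group, so leaving them out widened the difference. Tm7sf2, a sterol C14 reductase, fell in the distal small intestine, with a log2 difference of -0.82 ± 0.23. It was -1.17 without the libraries numbered 4, but -0.54 and not called without GFP-negative replicate 1, whose 52.2 CPM was the highest of its group. Mvd in the distal small intestine was -2.05 and Scap in the proximal small intestine 0.46 without the libraries numbered 4, both still called. Without the libraries numbered 4, 21 members were called in the proximal, 24 in the middle and 25 in the distal small intestine, 17 in the proximal colon and 11 in the distal colon, against 18, 23, 24, 13 and 8 with them. These counts join both directions. The shares of all genes called without these libraries are not given here, so the counts do not set the members apart.

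**Figure D4:**
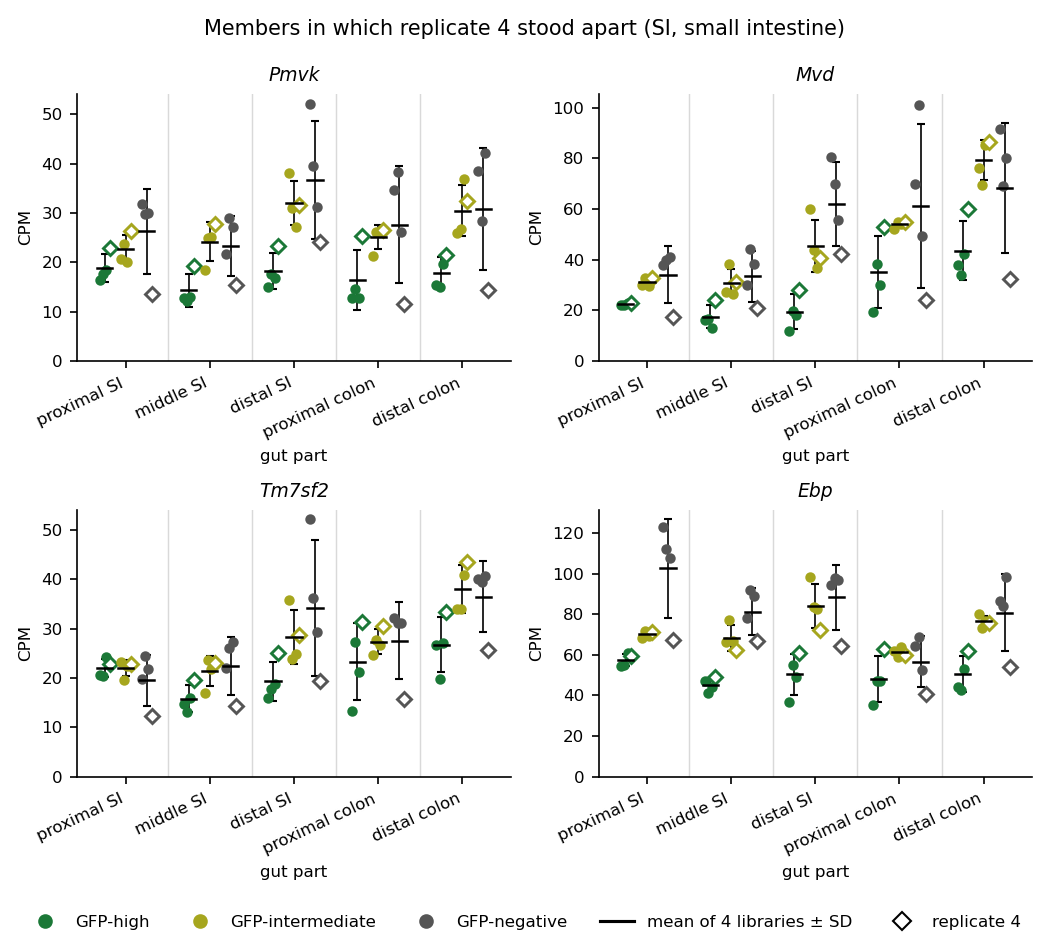
CPM of Pmvk, Mvd, Tm7sf2 and Ebp in each library, by gut part and GFP fraction, with the mean and SD of 4 libraries; open diamonds are the libraries numbered 4. The diamond is the lowest GFP-negative point in every panel and gut part, for example 13.5 CPM against 29.8 to 31.8 CPM for Pmvk in the proximal small intestine.

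The GFP-intermediate fraction lay between the others for most members. By group means, 21, 19 and 19 of the 30 ascended in the order GFP-high, GFP-intermediate, GFP-negative along the small intestine, as did 17 in the proximal and 15 in the distal colon. The share of all genes in this order was not determined, so these counts do not set the members apart from other genes. Against GFP-intermediate cells, GFP-high cells of the small intestine had 12 members lower and 3 higher, where 13.4% of all genes were called lower and 10.4% higher, and those of the colon had 5 lower and 1 higher, where 7.20% and 4.83% were. GFP-intermediate against GFP-negative cells gave 18 lower and 3 higher in the small intestine (30.5% and 29.3% of all genes) and 9 lower and 1 higher in the colon (12.2% and 10.8%). These comparisons share libraries with those above and are set beside them without a test of overlap.

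The steps differed between genes. For Mvd, the lowest, median and highest values were 11.7, 20.9 and 28.1 CPM over the 12 GFP-high libraries of the small intestine and 26.6, 32.7 and 59.99 CPM over the 12 GFP-intermediate ones, and the log2 difference was -0.84 ± 0.17 (adjusted p = 0.000245). Mvk and Pmvk followed, with -0.68 ± 0.14 (adjusted p = 0.000262) and -0.61 ± 0.16 (adjusted p = 0.00302). Without the libraries numbered 4 the 3 values were -0.99, -0.80 and -0.70. Between GFP-intermediate and GFP-negative cells these 3 genes differed by -0.23 ± 0.17, -0.16 ± 0.14 and -0.12 ± 0.16, none called. The sterol transporters had the opposite profile: Abcg5 differed by -0.39 ± 0.17 between GFP-high and GFP-intermediate cells, not called, and by -2.12 ± 0.18 (adjusted p = 7.79e-15) between GFP-intermediate and GFP-negative cells. Its lowest, median and highest values were 36.9, 55.5 and 104 CPM in GFP-intermediate and 166, 257 and 364 CPM in GFP-negative libraries. Mylip differed by 0.74 ± 0.19 (adjusted p = 0.00255) between GFP-high and GFP-intermediate cells, a rise, and was lower in GFP-intermediate than in GFP-negative cells, -1.80 ± 0.19 (adjusted p = 5.78e-12). Its lowest, median and highest values were 0.506, 3.60 and 12.8 CPM in GFP-high, 0.423, 2.05 and 7.13 CPM in GFP-intermediate and 2.16, 6.50 and 17.8 CPM in GFP-negative libraries of the small intestine, so that GFP-intermediate cells had the lowest level.

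In the colon, Mvd and Pmvk were lower in GFP-high than in GFP-intermediate cells, with log2 differences of -0.74 ± 0.21 and -0.69 ± 0.19 (-0.95 and -0.86 without the libraries numbered 4), and Ggps1 was higher by 0.40 ± 0.12. Between GFP-intermediate and GFP-negative cells of the colon, Msmo1, Hmgcs1 and Sc5d had the largest negative differences, of -0.68 ± 0.14 (adjusted p = 0.000206), -0.64 ± 0.13 (adjusted p = 0.000197) and -0.44 ± 0.10 (adjusted p = 0.000704), and Abca1 rose by 0.72 ± 0.27 (adjusted p = 0.0468). Acat2 and Npc2, which were not called between GFP-high and GFP-negative cells in any part of the small intestine, were higher in GFP-intermediate than in GFP-negative cells there, by 0.44 ± 0.09 and 0.21 ± 0.09. The number of members called between GFP-high and GFP-intermediate cells of the colon was 2 without proximal colon GFP-high replicate 1, 0 when replicate number 1, 2 or 3 was left out and 10 without number 4.

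Between organs, more members were higher than lower in the colon. The GFP-high libraries also differed in markers, with medians in the colon against the small intestine of 20500 against 3084 CPM for goblet, 40.9 against 14380 CPM for Paneth and 1108 against 15300 CPM for stem cell markers, and their part in the organ differences was not tested. In GFP-high cells, 19 members were higher and 3 lower in colon than in small intestine, against 20.9% and 21.3% of all genes, and in GFP-negative cells 17 were higher and 6 lower, against 28.1% and 22.4%. Fdft1, Lss, Msmo1 and Mylip were higher in all 8 GFP-high libraries of the colon than in any of the 12 of the small intestine, as were 5.92% of all genes tested. Msmo1 had a lowest, median and highest value of 103, 133 and 172 CPM in the colon and 38.5, 51.3 and 87.6 CPM in the small intestine, a log2 difference of 1.29 ± 0.13 (adjusted p = 1.59e-12). Lss had 52.8, 67.3 and 87.4 CPM in the colon and 23.9, 33.8 and 41.7 CPM in the small intestine in the same terms, a difference of 1.04 ± 0.11 (adjusted p = 4.71e-12). Both genes were also higher in GFP-negative cells of the colon, by 0.59 ± 0.13 and 0.83 ± 0.11. Hmgcs1 was higher by 1.00 ± 0.12 for GFP-high and 0.60 ± 0.12 for GFP-negative cells, Insig1 by 0.78 ± 0.11 and 0.66 ± 0.11, and Srebf2 by 0.46 ± 0.09 and 0.43 ± 0.09.

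Sc5d, Insig2 and Ebp were lower in the colon in GFP-negative cells. In GFP-high cells their organ differences were 0.19 ± 0.09, 0.01 ± 0.09 and -0.05 ± 0.11, none called, whereas in GFP-negative cells the colon was lower, with -0.73 ± 0.09 (adjusted p = 2.73e-09), -0.80 ± 0.09 (adjusted p = 3e-11) and -0.42 ± 0.11 (adjusted p = 0.000991). The organ difference of the fraction effect was called for Sc5d and Insig2, as given below, and not for Ebp (adjusted p = 0.0531). Sc5d had a lowest, median and highest value of 66.5, 89.1 and 123 CPM in GFP-negative libraries of the colon and 111, 148 and 202 CPM in those of the small intestine. Scap was lower in GFP-high cells of the colon, -0.23 ± 0.09 (adjusted p = 0.0441), and higher in its GFP-negative cells, 0.44 ± 0.09 (adjusted p = 5.07e-05). Without the libraries numbered 4 these were -0.26 and 0.51. Its lowest, median and highest values were 51.0, 64.7 and 77.2 CPM in GFP-high libraries of the colon and 52.7, 75.7 and 89.7 CPM in those of the small intestine.

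Mylip and the transporters differed by far more. Mylip had a lowest, median and highest value of 26.9, 35.1 and 56.8 CPM in GFP-high libraries of the colon and 0.506, 3.60 and 12.8 CPM in those of the small intestine, a log2 difference of 3.37 ± 0.21 (adjusted p = 4.96e-20). In GFP-negative libraries it had 26.4, 34.4 and 52.8 CPM in the colon and 2.16, 6.50 and 17.8 CPM in the small intestine, a difference of 2.27 ± 0.20 (adjusted p = 1.85e-14). The organs did not overlap in either fraction. Abcg5 was lower in the colon, with log2 differences of -4.76 ± 0.25 (adjusted p = 1.02e-22) in GFP-high and -7.13 ± 0.28 (adjusted p = 3.85e-28) in GFP-negative cells, and so was Abcg8, with -4.82 ± 0.26 (adjusted p = 2.7e-22) and -7.43 ± 0.29 (adjusted p = 5.87e-28). Abca1 had 8.04, 20.4 and 55.6 CPM as its lowest, median and highest value in GFP-high libraries of the colon and 2.80, 6.61 and 10.7 CPM in those of the small intestine, a difference of 1.79 ± 0.25 (adjusted p = 2.36e-08). In GFP-negative libraries it had 5.53, 9.11 and 17.4 CPM in the colon and 5.91, 48.1 and 84.8 CPM in the small intestine, a difference of -1.81 ± 0.26 (adjusted p = 6.38e-08) in the opposite direction. The organs overlapped in both fractions.

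**Figure D5:**
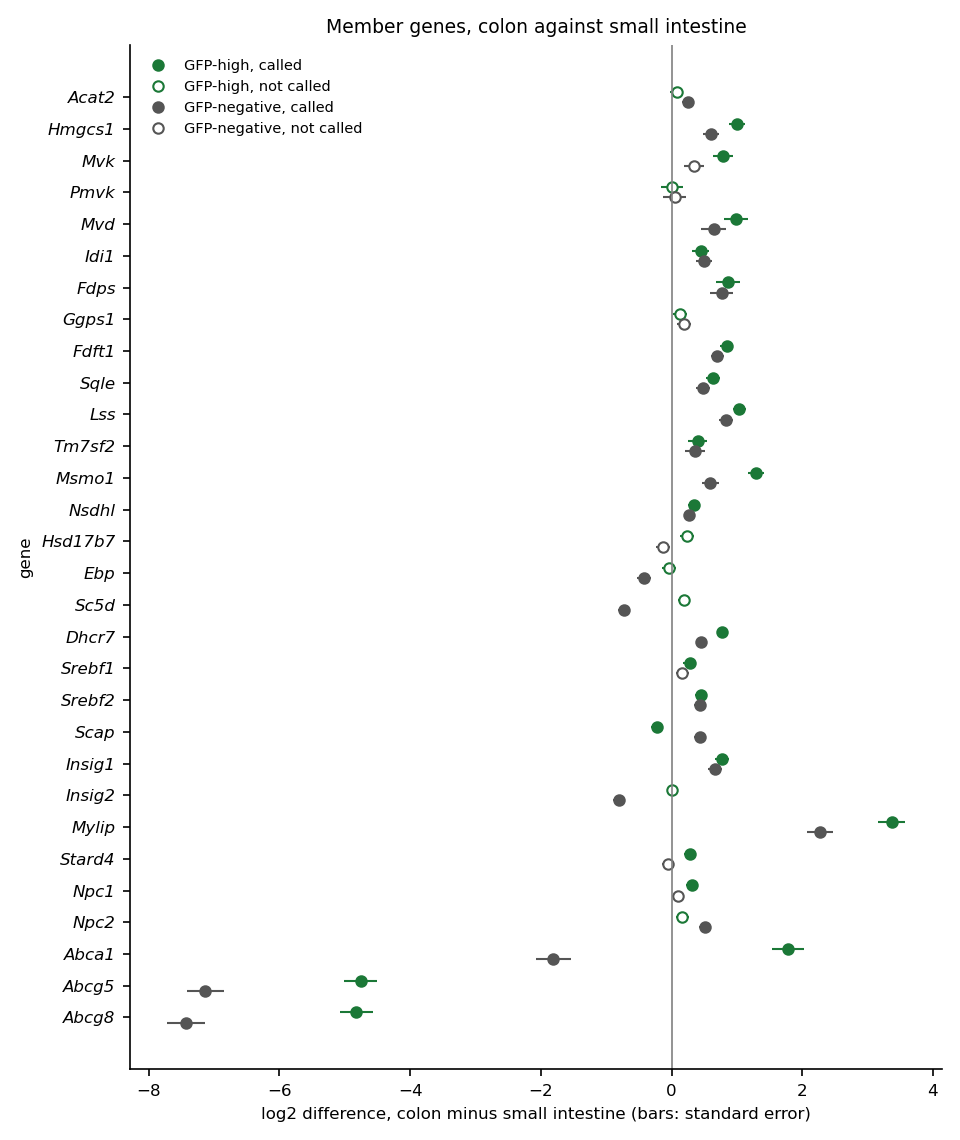
Log2 difference of colon minus small intestine for each member in GFP-high and GFP-negative cells, with standard errors; filled points had an adjusted p below 0.05. Most members lie right of 0 in both fractions, Abcg5 and Abcg8 lie at -4.76 and -4.82 in GFP-high and at -7.13 and -7.43 in GFP-negative cells, and Abca1 lies at 1.79 for GFP-high and at -1.81 for GFP-negative cells.

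The test of the difference between organs in the GFP-high minus GFP-negative effect called 10 members, 9 with a higher effect in the colon and 1 with a lower one, where 32.2% of all genes were called. The share of members called was close to that of all genes. Abca1 differed most, by 3.60 ± 0.36 (adjusted p = 1.4e-11), followed by Abcg8 with 2.60 ± 0.31 (adjusted p = 1.22e-09), Abcg5 with 2.37 ± 0.30 (adjusted p = 4.89e-09) and Mylip with 1.10 ± 0.28 (adjusted p = 0.00167). Of the synthesis genes, Sc5d with 0.92 ± 0.13 (adjusted p = 9.04e-08), Msmo1 with 0.70 ± 0.18 (adjusted p = 0.00188) and Dhcr7 with 0.31 ± 0.10 (adjusted p = 0.0103) were called, and of the regulators Insig2 with 0.81 ± 0.12 (adjusted p = 3.42e-07) and Scap with -0.67 ± 0.13 (adjusted p = 4.54e-05). Stard4, with 0.34 ± 0.12 (adjusted p = 0.0271), was not called with only the groups compared. For Hmgcs1, Sqle and Lss the organ difference in the effect was 0.39 ± 0.17, 0.16 ± 0.15 and 0.21 ± 0.15, none called. Between distal and proximal colon no member was called in the same test by edgeR or by the DESeq2 Wald test, where 0.616% of all genes were called by edgeR. At an unadjusted p below 0.05, 3 members differed there, a count given without the share of all genes at that threshold.

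Along the small intestine several members were higher distally. Between distal and proximal GFP-high cells 10 were higher and 0 lower, where 6.39% of all genes were called higher and 5.42% lower, and between distal and proximal GFP-negative cells 13 were higher and 0 lower, where 6.67% and 8.90% were. Mylip stood at 1.35 ± 0.653, 3.56 ± 0.969 and 8.87 ± 3.09 CPM in GFP-high cells and at 3.81 ± 2.07, 7.22 ± 3.12 and 14.0 ± 3.61 CPM in GFP-negative cells, going from the proximal through the middle to the distal part (SD, n = 4 each). By library, GFP-high cells had 12.8, 8.50, 8.90 and 5.26 CPM in the distal and 1.79, 1.16, 1.93 and 0.506 CPM in the proximal part, and GFP-negative cells 11.3, 10.5, 17.8 and 16.3 CPM in the distal and 6.76, 2.16, 3.69 and 2.61 CPM in the proximal part. The distal libraries were above the proximal ones in both fractions, with log2 differences of 2.72 ± 0.34 (adjusted p = 2.65e-08) in GFP-high and 1.87 ± 0.32 (adjusted p = 1.45e-05) in GFP-negative cells. Abca1 differed by 1.21 ± 0.39 (adjusted p = 0.0358) and 2.29 ± 0.40 (adjusted p = 2.21e-05) in the same fractions, with its highest level in the middle part of GFP-negative cells. Idi1 had 85.0, 96.7, 65.8 and 68.5 CPM in the distal and 45.4, 48.3, 52.8 and 47.2 CPM in the proximal part of GFP-high cells, 0.71 ± 0.20 (adjusted p = 0.0157). Sqle had 250.2, 243, 181 and 206 CPM in the distal and 80.7, 94.9, 109.5 and 102 CPM in the proximal part of GFP-negative cells, 1.19 ± 0.17 (adjusted p = 2.96e-07).

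The GFP-high count depended on single libraries. It was 1 without distal replicate 1, 3 without distal replicate 2, 6 without distal replicate 3, and 2, 4, 5 and 2 without proximal replicates 1 to 4. The GFP-negative count was 6 without the libraries numbered 1 and 5 with only the groups compared.

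Between the colon parts fewer members differed. Between distal and proximal GFP-high cells 4 were higher and 0 lower, where 3.74% of all genes were called higher and 4.05% lower. Between distal and proximal GFP-negative cells 5 were higher and 0 lower, where 6.39% and 7.17% were. Abcg5 had the largest called difference in both, at the low colon levels given above, of 1.04 ± 0.33 (adjusted p = 0.0404) in GFP-high and 1.85 ± 0.34 (adjusted p = 6.67e-05) in GFP-negative cells. Npc2 had 171, 170.0, 145 and 181 CPM in the distal and 104, 106, 95.1 and 144 CPM in the proximal part of GFP-high cells, and 271, 265, 211 and 177 CPM in the distal and 149, 155, 102 and 88.8 CPM in the proximal part of GFP-negative cells. Distal libraries were higher without overlap, with differences of 0.57 ± 0.15 (adjusted p = 0.00965) and 0.90 ± 0.15 (adjusted p = 1.43e-05). Sqle had 154, 134, 168 and 171 CPM in the distal and 99.6, 133, 105 and 98.9 CPM in the proximal part of GFP-high cells, 0.52 ± 0.17 (adjusted p = 0.0382). Dhcr7 was higher distally in both fractions, by 0.43 ± 0.11 and 0.36 ± 0.11. Abca1, at -1.17 ± 0.39 in GFP-high cells, was further apart but missed the threshold (adjusted p = 0.0518), and was called lower in the distal part by the DESeq2 Wald test, in the newer quasi-likelihood form and with the replicate block. The GFP-high count was 2 without distal or proximal replicate 1, and the GFP-negative count was 2 without distal replicate 1, 8 without proximal replicate 2 and 3 without proximal replicate 3 or 4.

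Other genes of sterol and isoprenoid metabolism did not all follow. Of 12 genes for sterol sensing and turnover, 6 fell and 2 rose in GFP-high against GFP-negative cells in each part of the small intestine. Of all genes, 24.6%, 25.6% and 26.2% fell and 22.5%, 22.7% and 25.7% rose along the small intestine. Nr1h3, which encodes LXR-alpha, fell, with log2 differences of -1.41 ± 0.16, -1.63 ± 0.16 and -1.76 ± 0.16 along the small intestine. Erlin1, which takes part in sterol-driven degradation in the endoplasmic reticulum, fell, with -0.88 ± 0.13, -1.29 ± 0.13 and -1.41 ± 0.13. In the proximal colon 0 of the 12 fell and 1, Mbtps1, rose, where 14.0% of all genes fell and 11.3% rose. In the distal colon 2 fell and 2 rose, shares near the 13.9% and 11.2% of all genes that did. Between organs Nr1h3 was lower in the colon, with -0.98 ± 0.11 for GFP-high and -2.33 ± 0.11 for GFP-negative cells.

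Of 19 tested genes for sterol uptake, storage and transfer, 14, 13 and 15 fell and 2, 2 and 3 rose along the small intestine, and 8 fell and 1 rose in the proximal and 4 fell and 1 rose in the distal colon. Of all genes, 24.6%, 25.6% and 26.2% fell and 22.5%, 22.7% and 25.7% rose along the small intestine. In the proximal colon 14.0% of all genes fell and 11.3% rose, and in the distal colon 13.9% and 11.2%. The acyltransferases that esterify cholesterol differed in direction in the small intestine. Soat1, the form of most tissues, rose by 3.24 ± 0.20 (adjusted p = 9.46e-19) in the proximal, 3.51 ± 0.20 (adjusted p = 7.35e-20) in the middle and 2.82 ± 0.20 (adjusted p = 3.39e-17) in the distal part, and Soat2, the enterocyte form, fell in the distal part, with a log2 difference of -3.11 ± 0.35 (adjusted p = 1.66e-10). Lipa, the lysosomal acid lipase, fell, with -3.08 ± 0.28 and -2.59 ± 0.27 in the proximal and middle parts. Npc1l1, the cholesterol importer of the brush border, was lower in the colon than in the small intestine, with -9.32 ± 0.42 for GFP-high and -10.84 ± 0.43 for GFP-negative cells. Apoa1 and Apoa4 of this list are also enterocyte markers in the sums given above.

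Of the fatty acid genes under SREBP-1, more rose than fell in the small intestine. Of 13 tested, 8 rose and 3 fell in each part, and the median log2 difference was 0.84, 0.50 and 0.65 along the small intestine, against -0.04 and 0.07 in the proximal and distal colon. Of all genes, 22.5%, 22.7% and 25.7% rose and 24.6%, 25.6% and 26.2% fell along the small intestine. The desaturase Fads1 rose by 2.18 ± 0.20 (adjusted p = 1.94e-13) in the proximal, 2.65 ± 0.20 (adjusted p = 7.57e-16) in the middle and 3.42 ± 0.21 (adjusted p = 2.33e-19) in the distal small intestine. In the proximal and distal colon the rise was 1.51 ± 0.19 (adjusted p = 3.09e-08) and 2.16 ± 0.20 (adjusted p = 1.2e-11). Acss2, the cytosolic acetyl-CoA synthetase, rose by 1.11 ± 0.12, 1.34 ± 0.12 and 1.38 ± 0.12 along the small intestine. The largest difference of the list was a fall, in the desaturase Scd1, with -5.32 ± 0.63 (adjusted p = 4.66e-10) in the proximal, -4.82 ± 0.60 (adjusted p = 1.87e-09) in the middle and -5.01 ± 0.57 (adjusted p = 1.35e-10) in the distal small intestine, and the elongase Elovl6 fell, with -1.90 ± 0.18 and -1.69 ± 0.18 in its proximal and middle parts. In the proximal colon 3 rose and 2 fell, and in the distal colon 2 rose and 1 fell. Of all genes, 11.3% rose and 14.0% fell in the proximal and 11.2% rose and 13.9% fell in the distal colon. Of 12 genes of the non-sterol isoprenoid branch, 3, 4 and 4 rose and 3, 2 and 2 fell along the small intestine, shares near the 22.5%, 22.7% and 25.7% of all genes that rose and the 24.6%, 25.6% and 26.2% that fell. Coq2, of coenzyme Q synthesis, rose in each part, by 0.55 ± 0.08, 0.69 ± 0.08 and 0.79 ± 0.08, and in the proximal and distal colon 4 and 1 of the 12 rose and 1 and 2 fell.

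Per kb of the gene length given in the deposited table, on which the order between genes depends, and averaged over all libraries, Hmgcs1 led with 55.3 CPM per kb, followed by Stard4 with 51.2, Srebf2 with 40.1 and Insig1 with 37.0 CPM per kb. Insig1 exceeded Insig2, at 12.5 CPM per kb, and Srebf2 exceeded Srebf1, at 21.7 CPM per kb. At the low end stood Npc1 with 2.96, Abca1 with 1.74 and Fdps with 0.944 CPM per kb. Abcg5 and Abcg8 averaged 27.3 and 19.1 CPM per kb, a mean that joins their small intestinal and colonic levels.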

How the data were processed

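RNA of GFP-sorted epithelium was sequenced in 60 libraries, 4 in each of 15 groups of gut part and GFP fraction. The authors deposited a table of raw counts per gene; the submitters' processing notes name the mm10 build with the tools edgeR, featureCounts, Subread and STAR. Tool versions, strandedness and annotation release are not given in the sources used here. All libraries were fitted together in edgeR 4.0.16 (R 4.3.3, limma 3.58.1) with TMM scaling (0.777 to 1.16), the filterByExpr filter, which left 23360 genes and 99.97% to 99.99% of counts, and quasi-likelihood F tests with 45 residual degrees of freedom. Benjamini-Hochberg adjustment ran over all genes tested, with calls below 0.05. Standard errors are the log2 difference over the square root of F. Alternatives were DESeq2 1.42.0 size factors and Wald test, no filter, the newer quasi-likelihood form, a replicate block, only the groups compared, and each library or replicate number left out, in which the dispersion trend of the full fit was kept.

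The deposited count table gives a batch equal to the replicate number in 60 of 60 libraries. Residuals of 420 pairs of libraries with the same number correlated at 0.168 on average over 8000 genes (58.8% above 0.1), and those of other pairs at -0.0521. Depth was 55411864 to 113917959 counts, with a median of 81230235.

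All 30 members were accounted for. Values per library are given for the called members with the largest differences, up to 3 in each direction of a comparison, and for Srebf1, Srebf2, Insig1, Insig2, Abcg5 and Abcg8. Up to 4 genes of each other pathway list with the smallest p were eligible to be named. Members and lists were chosen with earlier results of these data known. Promoter sequences are from RefSeq (GRCm38.p6), and exon overlaps from GENCODE vM21, which may differ from the authors' annotation.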

Additional observations from a re-analysis of the deposited data

Results flagged for a closer look

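Each of the 450 sets of 4 libraries (30 members in 15 groups) was checked for 1 library far from the other 3, by Dixon's gap-to-range ratio at the 95% level, and 29 sets held one, of which 14 were in replicate 4, 7 in replicate 1, 5 in replicate 2 and 3 in replicate 3. Chance flags about 1 in 20 such sets. Replicate 4 was far below the others in the following sets. Pmvk had 13.5 CPM within the proximal small intestine GFP-negative group, where the others had 29.8 to 31.8 CPM. Mvd had 17.2 CPM within the proximal small intestine GFP-negative group, where the others had 38.0 to 41.1 CPM. Fdps had 3.80 CPM within the distal small intestine GFP-negative group, where the others had 6.78 to 7.12 CPM. Tm7sf2 had 15.8 CPM within the proximal colon GFP-negative group, where the others had 31.1 to 32.1 CPM, and 25.7 CPM within the distal colon GFP-negative group, where the others had 39.4 to 40.6 CPM. Ebp had 64.2 CPM within the distal small intestine GFP-negative group, where the others had 94.2 to 97.9 CPM. Sc5d had 63.9 CPM within the distal colon GFP-high group, where the others had 80.0 to 82.7 CPM. Scap had 50.8 CPM within the distal small intestine GFP-negative group, where the others had 59.5 to 61.2 CPM, and 55.4 CPM within the distal colon GFP-negative group, where the others had 86.3 to 90.6 CPM. Abcg8 had 56.1 CPM within the middle small intestine GFP-high group, where the others had 66.9 to 68.5 CPM.

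Replicate 4 was far above the others in the following sets. Pmvk had 19.3 CPM within the middle small intestine GFP-high group, where the others had 12.1 to 13.0 CPM, and 25.4 CPM within the proximal colon GFP-high group, where the others had 12.7 to 14.6 CPM. Ggps1 had 47.6 CPM within the proximal colon GFP-negative group, where the others had 27.9 to 28.6 CPM. Stard4 had 346 CPM within the proximal colon GFP-intermediate group, where the others had 297 to 298 CPM.

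Replicate 1 stood apart from the others in the following sets. Pmvk had 21.4 CPM within the proximal colon GFP-intermediate group, where the others had 26.1 to 26.4 CPM. Fdft1 had 49.7 CPM within the middle small intestine GFP-negative group, where the others had 78.1 to 81.4 CPM, and 137 CPM within the distal small intestine GFP-intermediate group, where the others had 83.5 to 89.5 CPM. Hsd17b7 had 26.8 CPM within the proximal small intestine GFP-negative group, where the others had 47.7 to 51.6 CPM. Scap had 52.7 CPM within the distal small intestine GFP-high group, where the others had 72.5 to 76.5 CPM. Insig2 had 23.3 CPM within the proximal small intestine GFP-high group, where the others had 30.5 to 31.2 CPM. Mylip had 11.9 CPM within the middle small intestine GFP-negative group, where the others had 5.38 to 6.23 CPM.

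Replicate 2 stood apart from the others in the following sets. Fdps had 4.15 CPM within the proximal small intestine GFP-intermediate group, where the others had 1.83 to 2.13 CPM. Sqle had 133 CPM within the proximal colon GFP-high group, where the others had 98.9 to 105 CPM. Nsdhl had 43.1 CPM within the proximal small intestine GFP-intermediate group, where the others had 37.0 to 37.9 CPM, and 43.2 CPM within the distal small intestine GFP-high group, where the others had 33.9 to 35.3 CPM. Abca1 had 14.7 CPM within the middle small intestine GFP-intermediate group, where the others had 4.71 to 5.55 CPM.

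Replicate 3 stood apart from the others in the following sets. Fdps had 0.795 CPM within the middle small intestine GFP-high group, where the others had 2.04 to 2.11 CPM. Dhcr7 had 48.2 CPM within the middle small intestine GFP-high group, where the others had 61.5 to 63.9 CPM. Abcg5 had 0.454 CPM within the proximal colon GFP-high group, where the others had 1.33 to 1.43 CPM.

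The effect of GFP-high against GFP-negative cells differed between colon and small intestine for 10 members, by the test of that difference across all genes. The share of members called was close to the 32.2% of all genes called. As colon minus small intestine, in log2 units, the difference was 3.60 for Abca1, 2.60 for Abcg8, 2.37 for Abcg5, 1.10 for Mylip, 0.92 for Sc5d, 0.81 for Insig2, 0.70 for Msmo1, 0.34 for Stard4, 0.31 for Dhcr7 and -0.67 for Scap. Between the distal and the proximal small intestine the effect differed for Npc1, by -1.04, in a test that called 3.54% of all genes. The summed enterocyte markers were at 655 to 888.5 CPM in GFP-high and 754 to 1199 CPM in GFP-negative libraries of the colon, and at 1603 to 3823 CPM in GFP-high and 18810 to 45430 CPM in GFP-negative libraries of the small intestine, and their part in these differences was not tested.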

How the results depend on the processing

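No called value of a member changed sign under any alternative. Of 226 called values, 217 kept their call with DESeq2 size factors, 205 without the filter on low counts, 218 in the DESeq2 Wald test, 224 in the newer quasi-likelihood form and 184 with only the groups compared. With the replicate block 225 kept it, the exception being Mvd in the proximal colon; with the block the counts of members called were 19, 23, 25, 13 and 9 for GFP-high against GFP-negative cells in the order proximal, middle, distal small intestine, proximal colon, distal colon. With only the groups compared, counts fell to 3 for GFP-high against GFP-negative cells in the proximal colon (13 in the full fit) and 5 in the distal colon (8), to 6 for GFP-intermediate against GFP-negative cells of the colon (10), to 5 for the distal against the proximal small intestine in GFP-negative cells (13), and to 2 and 1 for the distal against the proximal colon in GFP-high (4) and GFP-negative cells (5). The Wald test called 13 in the distal colon, 10 between GFP-high and GFP-intermediate cells of the colon (6), 7 between distal and proximal colon in GFP-high cells, and 3 in the test of small intestine parts (1). Without the filter, 6 were called for GFP-intermediate against GFP-negative cells of the colon and 6 for the distal against the proximal small intestine in GFP-high cells (10). The cause of these changes was not tested. The shares of all genes called under each alternative are not given here, so these counts do not set the members apart.

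Leaving out 1 library or 1 replicate number gave 14 to 24 calls for GFP-high against GFP-negative cells in the middle small intestine, with 14 without number 3. In the proximal colon it gave 5 to 17, with 6, 5 and 7 without GFP-high replicates 1, 3 and 4, 6 without GFP-negative replicate 2, and 5, 6 and 6 without numbers 1, 2 and 3. In the distal colon it gave 0 to 12, with 3 and 4 without GFP-high replicates 2 and 3, 4 and 5 without GFP-negative replicates 1 and 3, and 4, 5 and 0 without numbers 1, 2 and 3. Between GFP-high and GFP-intermediate cells of the colon the range was 0 to 10. Between GFP-intermediate and GFP-negative cells of the colon it was 3 to 10, with 6, 5 and 6 without distal GFP-intermediate replicates 2, 3 and 4, 5 and 6 without distal GFP-negative replicates 1 and 3, 5 without proximal GFP-intermediate replicate 2 or 4, 5 and 6 without proximal GFP-negative replicates 2 and 4, and 6, 3, 6 and 5 without numbers 1 to 4. Distal against proximal small intestine gave 1 to 8 in GFP-high cells, with 1, 1 and 5 without numbers 1, 2 and 3, and 6 to 13 in GFP-negative cells. Distal against proximal colon gave 0 to 5 in GFP-high cells, with 0 and 1 without numbers 1 and 3, and 2 to 8 in GFP-negative cells. The test of small intestine parts gave 1 to 3, with 2 without distal GFP-high or GFP-negative replicate 4 or proximal GFP-negative replicate 2 or 3, and 3 without number 4. Of the 226 called values, 94 lost their call in at least 1 of these fits. The shares of all genes called in these fits are not given here either. Srebf1 and Srebf2 were called in 1 and 2 gut parts in the full fit and in 5 each without number 4. In both genes GFP-negative replicate 4 was the lowest of its group in every part. Their GFP-high replicate 4 was the highest of its group in every part but the proximal small intestine. Sqle, Insig1 and Hmgcs1, called in 5 parts in the full fit, lost calls without number 4.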
